A study of Mus musculus with 6 samples.

Results

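The genes described here are 9 liver genes of alcohol and vitamin A metabolism: Adh1, Adh4, Adh5, Adh6-ps1, Rdh11, Rdh16, Aldh1a1, Rbp4 and Lrat. Each was read from the probe (a transcript cluster of the array) that the platform annotation gives to that gene alone, and Adh1, which has more than 1 such probe, from the one with the highest mean of the 6 arrays. All 9 had such a probe, as 22180 genes did, and all 9 belonged to the 13493 genes tested, which reached the median level of all probes (2.65). Both group means of every member lay above that level. The genes were chosen on their pathway and on their log2 differences between these groups, Adh6-ps1 for its own difference, so the values below are a description and carry no test of their own.

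Livers came from male C57BL/6 mice that were 8 weeks old and had 1 week to acclimatise. Mice of the vehicle group (3 arrays) had vehicle and a high-fat diet for 6 weeks, and mice of the Vascepa group (3 arrays) had Vascepa and the same diet for 6 weeks. The protocol gives 7 days of treatment, with the weeks of diet after them. Vascepa is icosapent ethyl, an ester of eicosapentaenoic acid, which is an omega-3 fatty acid. The diet was thus common to all 6 livers, and livers on another diet were not compared. The labels state neither dose nor route, nor whether samples came from separate animals, so the spread between samples given below may be technical.

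The liver is the main store of vitamin A. Retinol arrives there as an ester from the diet, is esterified again by lecithin retinol acyltransferase in stellate cells, and leaves the hepatocyte bound to retinol-binding protein and transthyretin. Alcohol dehydrogenases and microsomal retinol dehydrogenases oxidise retinol to retinal, and retinaldehyde dehydrogenases turn retinal into retinoic acid, the ligand of the nuclear receptors RAR. The same alcohol dehydrogenases clear ethanol, which aldehyde dehydrogenases take on to acetate. Adh1, Adh6-ps1, Adh4 and Adh5 lie in this order in 1 cluster of neighbouring genes in the RefSeq annotation, with Adh6a and Adh6b between Adh1 and Adh6-ps1.

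RefSeq's table of start sites (GRCm38.p6) had entries for 8 of the 9 genes, and for 6 of them a listed 250-base window before the start lay outside the gene's annotated span. Shown are the windows of Adh1, an enzyme of hepatocytes, of Lrat, a gene of stellate cells, and of Rdh11, the member whose means differed most between the groups. Each reads 5′ to 3′ on the gene's own strand, and capitals mark CG pairs.
Adh1 (chr3:138277335-138277584, plus strand): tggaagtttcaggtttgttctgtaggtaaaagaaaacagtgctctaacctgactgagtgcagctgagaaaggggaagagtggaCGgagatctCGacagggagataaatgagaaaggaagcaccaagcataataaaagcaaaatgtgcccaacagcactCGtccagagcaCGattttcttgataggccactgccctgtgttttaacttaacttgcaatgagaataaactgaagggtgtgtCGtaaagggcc
Lrat (chr3:82903975-82904224, minus strand): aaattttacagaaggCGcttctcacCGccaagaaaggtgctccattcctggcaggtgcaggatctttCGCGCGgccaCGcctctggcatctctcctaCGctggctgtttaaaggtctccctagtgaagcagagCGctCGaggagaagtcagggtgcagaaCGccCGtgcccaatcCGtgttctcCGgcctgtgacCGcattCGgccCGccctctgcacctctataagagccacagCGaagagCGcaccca
Rdh11 (chr12:79191856-79192105, minus strand): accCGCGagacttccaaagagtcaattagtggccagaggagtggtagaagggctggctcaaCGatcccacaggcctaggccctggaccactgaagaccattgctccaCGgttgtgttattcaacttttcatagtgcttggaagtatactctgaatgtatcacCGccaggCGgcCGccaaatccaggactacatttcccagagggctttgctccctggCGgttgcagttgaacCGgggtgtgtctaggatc
The Adh1 window held 5 CG pairs, that of Rdh11 9 and that of Lrat 18, against a median of 6 over all 32851 windows of this length. Both strands were searched. The Lrat window held CCAAT, found in 33.8% of all windows, on the printed strand from 81 to 77 bases before the start. It also held GGGCGG, found in 32.7% of all windows, on the strand opposite the gene, from 45 to 40 bases before the start. The Adh1 and Rdh11 windows held neither of these, nor TATAAA (12.4% of all windows), CACGTG (6.02%), the nuclear receptor site AGGTCA (14.0%), its direct repeat DR5 (0.00913%) or the sterol element TCACNCCAC (1.05%). That site is part of the direct repeat, so these patterns overlap. These are letters in a short window and say nothing of whether a factor binds there.

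Expression is given as log2 values made by RMA, in which a difference of 1 is a 2-fold change. The probes differ in brightness, so levels are compared between arrays for 1 gene and not between genes. Arrays resembled each other, with a mean correlation to the others across genes from 0.962 to 0.982, and Vascepa replicate 3 was the lowest at 0.962. That array also carried the highest mean level of small nucleolar RNAs over 81 probes, 7.09. Vehicle replicates 1 to 3 stood at 5.61, 6.44 and 5.85, and Vascepa replicates 1 and 2 at 5.47 and 6.56. Vascepa replicate 3 was the lowest of the 6 arrays in 38.8% of all genes tested and the highest in 23%, each the largest share of any array. For Vascepa replicate 1 these shares were 18.2% and 22.9%. Hepatocyte markers bore out the labelled tissue, with Alb, which encodes albumin, between 13.18 and 13.33 and Ttr, which encodes transthyretin, between 12.83 and 13.01.

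The 9 genes fell into 3 patterns in Vascepa livers. Adh6-ps1 read higher on all 3 Vascepa arrays than on any vehicle array, and Rdh16 read lower on all 3 in the deposited values, though not after another quantile normalization. Adh1, Adh4, Adh5, Aldh1a1, Lrat and Rdh11 had their lowest value on Vascepa replicate 3, which makes 6 of 9, or 66.7%, against the 38.8% of all genes. Rbp4 had nearly equal means. By their means 7 members were lower and 2 were higher. Their median log2 difference was −0.19, against −0.063 for all 13493 genes, of which 60.1% were lower. Without Vascepa replicate 3 the 7 became 5 and the median became −0.024. The groups did not overlap for 3 of the 9 (Adh1, Adh6-ps1 and Rdh16) and for 8.24% of all genes tested, 3.13% with Vascepa higher and 5.11% with Vascepa lower. With single arrays left out, 3 or 4 members did not overlap against 13.1%, 14.9%, 15%, 15.1% and 17.1% of all genes, but without Vascepa replicate 1 it was 6 members against 31.8%. A difference of at least 1.5-fold was reached by Adh6-ps1 upward, as by 0.867% of all genes, and by Rdh11 and Rdh16 downward, as by 2.52%. The choice of members used these same differences, so nothing is read from these shares. In the fit across all genes (limma with Benjamini-Hochberg adjustment) 0 of 13493 genes passed an adjusted p under 0.05 (0%), with 362 (2.68%) at an unadjusted p under 0.05, of which 1.04% of all genes were higher and 1.64% lower. Among the 362 were 3 members, Adh6-ps1, Rdh16 and Rdh11. Every member but Rbp4 had the adjusted p of 0.976 that is the lowest of the table, and Rbp4 had 0.990.

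**Figure D1:**
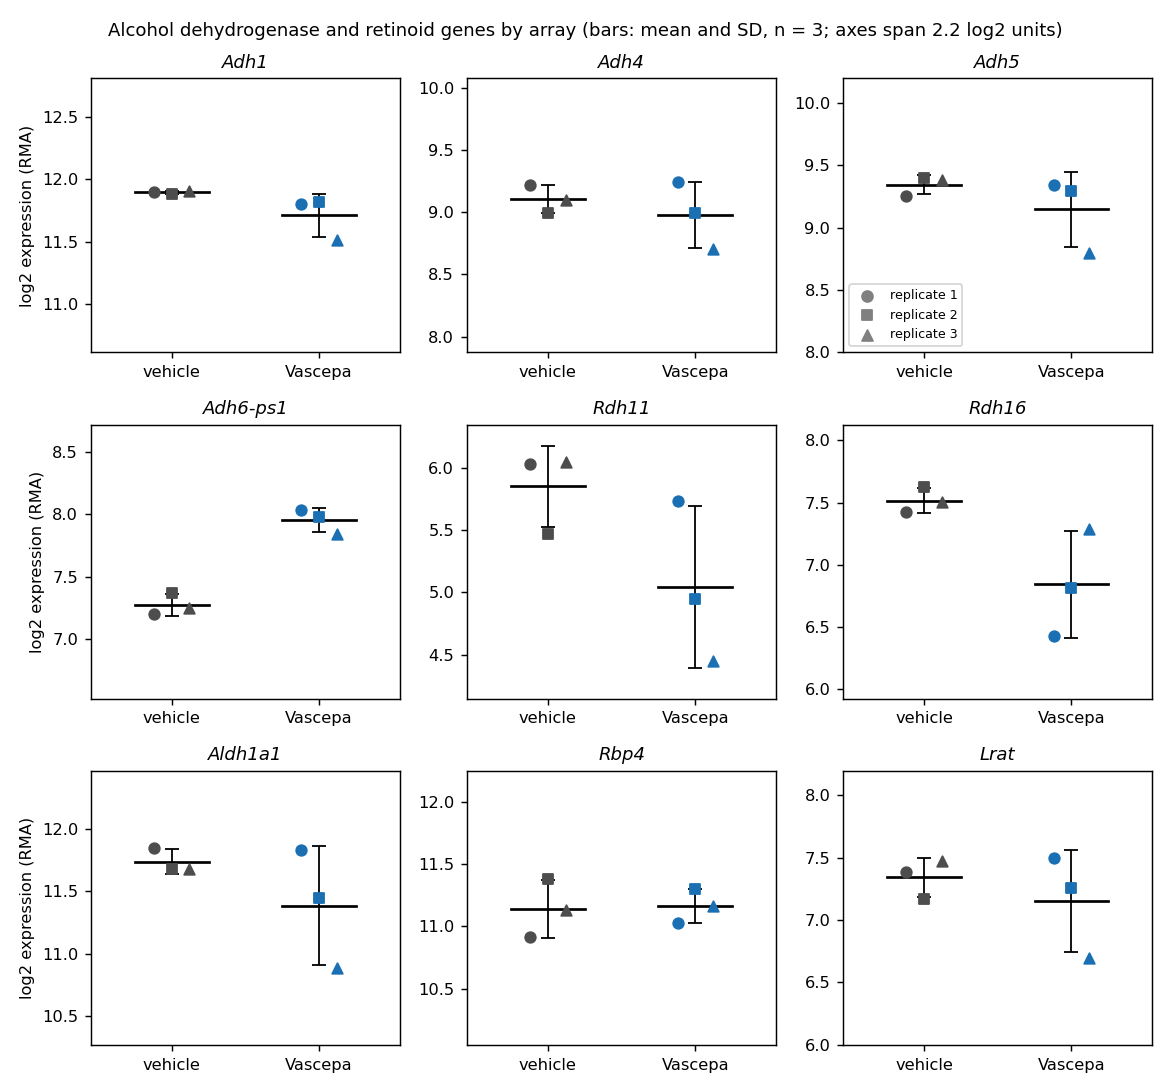
Log2 expression (RMA) of each gene on the y axis for vehicle and Vascepa livers on the x axis, 1 panel a gene and 1 point an array, with the mean and SD of 3 arrays as bars; every panel spans the same number of log2 units. Adh6-ps1 is the gene whose Vascepa points all lie above the vehicle points, Rdh16 and Adh1 have all Vascepa points below, and in most other panels the triangle of Vascepa replicate 3 is the lowest.

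Adh6-ps1 is annotated by RefSeq as a transcribed pseudogene of the alcohol dehydrogenase cluster. Vehicle livers gave 7.20, 7.37 and 7.25 and Vascepa livers 8.04, 7.98 and 7.84. The groups were separate, with 0.47 between the highest vehicle and the lowest Vascepa value, while the arrays of a group spanned 0.17 and 0.19. The mean went from 7.27 ± 0.087 to 7.95 ± 0.098 (SD, n = 3), a log2 difference of 0.68 ± 0.17 (SE) or 1.60-fold. Leaving out any 1 array kept it between 0.64 and 0.73. By p it stood at rank 13 of the 13493 genes. Its protein-coding relatives next to it, Adh6a and Adh6b, had probes under the filter level of 2.65. Adh6a read 1.709, 2.17 and 2.00 in vehicle livers and 1.62, 1.706 and 1.64 in Vascepa livers. Its Vascepa values thus all lay below the vehicle values, by a narrow margin (−0.30 ± 0.18, SE, in the fit without a filter). Adh6b read between 1.44 and 2.19 over the 6 arrays, with overlapping groups. Skeletal muscle markers were also higher in 4 of 5 tested, with a summed log2 level of 5.68 to 5.79 in vehicle livers. In Vascepa livers the sum was 5.99, 6.02 and 6.09, the reverse of the order of Adh6-ps1. Of the brightest, Acta1 differed by 0.52 ± 0.18 and Tnnt3 by −0.12 ± 0.16 (SE). Under the filter Mylpf and Actn3 were higher and Myh4, Pvalb and Myh1 lower. Pancreatic acinar markers were higher in 4 of 4 tested, with a summed log2 level of 5.28 to 5.71 against 5.65 to 5.89, and kidney tubule markers in 2 of 2, with 3.49 to 3.84 against 3.97 to 4.28. Of the muscle, acinar and kidney markers with a probe, 5 of 10, 4 of 9 and 2 of 7 reached the filter. The acinar marker Clps, with means of 2.51 in vehicle and 3.03 in Vascepa livers, reached it through its Vascepa values only. So did the kidney marker Slc22a6, with means of 2.47 and 2.99, so the filter in part set these counts. Of the acinar markers under the filter Zg16 and Prss2 were higher and Cpa1, Cela3b and Cpb1 lower. Over all 7 kidney markers with a probe the mean log2 level was 2.225, 2.421 and 2.223 in vehicle livers. In Vascepa livers it was 2.272, 2.379 and 2.512, so that the groups overlapped. The part of the muscle, acinar and kidney markers in the result was not tested.

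Adh1 encodes the class I enzyme that does most of the ethanol oxidation in liver and also oxidises retinol. It read 11.90, 11.88 and 11.91 in vehicle livers and 11.80, 11.82 and 11.51 in Vascepa livers. The vehicle arrays spanned 0.022 and the gap between the groups was 0.066, so the separation was narrow and much of the difference came with Vascepa replicate 3. The difference of the means was −0.19 ± 0.17 (SE), 1.14-fold lower, and −0.087 without that array. A second probe of Adh1 was dim on all arrays, at 1.31 to 1.48.

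Adh4, the class II enzyme with a high capacity for retinol, read 9.22, 8.995 and 9.10 in vehicle livers and 9.24, 8.99 and 8.71 in Vascepa livers. Vascepa replicate 1 was the highest of all 6 arrays and replicate 3 the lowest. The difference was −0.12 ± 0.20 (SE), and leaving out Vascepa replicate 3, Vascepa replicate 1 or vehicle replicate 1 gave 0.012, −0.25 and −0.066. Adh5, the class III enzyme that clears formaldehyde bound to glutathione and is made in nearly all tissues, read 9.26, 9.39 and 9.38 in vehicle livers. In Vascepa livers it read 9.34, 9.30 and 8.80. Here too the difference of −0.20 ± 0.21 (SE) went to −0.024 without Vascepa replicate 3. Adh1, Adh4 and Adh5 thus had overlapping or nearly touching groups while the pseudogene among them did not.

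Rdh11 and Rdh16 are short-chain dehydrogenases that interconvert retinol and retinal. Rdh11 mainly works as a retinal reductase and is known in liver as a target of the sterol regulator SREBP. It read 6.03, 5.47 and 6.04 in vehicle livers and 5.74, 4.94 and 4.45 in Vascepa livers. Vascepa replicate 1 lay inside the vehicle range and the other two below it, and among the vehicle arrays replicate 2 was low. The mean went from 5.85 ± 0.33 to 5.04 ± 0.65 (SD, n = 3), a difference of −0.81 ± 0.34 (SE) or 1.75-fold. Leaving out Vascepa replicate 1 gave −1.15 and leaving out replicate 3 gave −0.51. Of the adipocyte markers 4 of 5 tested were lower and Plin1 was higher, at 0.30 ± 0.22 (SE), and Adipoq and Lep were under the filter. Their summed log2 level was 12.56 to 12.68 in vehicle livers and 12.63, 12.28 and 11.95 in Vascepa livers. It followed the brightest, Car3, which read 12.62, 12.26 and 11.93 in Vascepa livers. The sum is thus in effect a reading of Car3 and not a measure of adipocytes. Adipoq and Lep read only 1.79 to 2.25 and 1.27 to 1.85 over the 6 arrays. Pparg, the next brightest after Car3, read 4.87, 4.86 and 4.999 in Vascepa livers and did not have the order of Rdh11. The part of these markers in the result was not tested.

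Rdh16, a microsomal enzyme that oxidises retinol and some steroids, differed in another way. It read 7.42, 7.62 and 7.50 in vehicle livers and 6.43, 6.81 and 7.29 in Vascepa livers. All Vascepa arrays lay below the vehicle arrays, by at least 0.13, and here Vascepa replicate 1 was the lowest and replicate 3 the nearest to vehicle. After another round of quantile normalization the groups overlapped, with Vascepa values of 6.38 to 7.44 against 7.37 to 7.62. The mean went from 7.52 ± 0.10 to 6.84 ± 0.43 (SD, n = 3), a difference of −0.67 ± 0.24 (SE) or 1.59-fold. Leaving out Vascepa replicate 1 gave −0.46 and leaving out replicate 3 gave −0.89. Markers of Kupffer cells, the liver macrophages, had a summed log2 level of 9.56, 9.71 and 10.07 in Vascepa livers against 9.98 to 10.18 in vehicle livers, and 10 of 11 were lower. Their sum had the order of Rdh16 in Vascepa livers, while their median relative to the vehicle mean, −0.48, −0.13 and −0.19, did not. The brightest, C1qb and Vsig4, differed by −0.52 ± 0.25 and −0.53 ± 0.18 (SE), and the part of these markers in the result was not tested. A probe that the annotation gives to both Rdh18-ps and Rdh16 was dim, at 1.14 to 1.74, with overlapping groups and a difference of 0.18 ± 0.21 (SE).

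Rdh16 has close relatives in the mouse whose RNA could bind its probe. Some with a probe of their own were chosen after their values were seen. Of these Rdh7 differed by −0.017 ± 0.17, Rdh9 by −0.14 ± 0.29 and Rdh16f2 by −0.41 ± 0.28 (SE). Rdh1, dim with means of 2.70 in vehicle and 2.85 in Vascepa livers, went the other way, by 0.15 ± 0.19 (SE). Rdh19 lay under the filter and differed by −0.24 ± 0.25 (SE) in the fit without a filter. Rdh16f2 read 7.15, 8.00 and 7.49 in vehicle livers and 6.73, 7.37 and 7.33 in Vascepa livers, with overlapping groups and the lowest value on Vascepa replicate 1, as in Rdh16. How much of either reading came from the other gene was not tested.

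Aldh1a1, the cytosolic enzyme that makes retinoic acid from retinal, read 11.85, 11.68 and 11.68 in vehicle livers and 11.83, 11.44 and 10.88 in Vascepa livers. Its Vascepa arrays spanned 0.95 and its vehicle arrays 0.17, and Vascepa replicate 1 lay within the vehicle range. The difference was −0.35 ± 0.26 (SE), or 1.28-fold. It was −0.10 without Vascepa replicate 3, and −0.58 without replicate 1.

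Rbp4, the plasma carrier that takes retinol out of the liver, read 10.91, 11.38 and 11.13 in vehicle livers and 11.02, 11.30 and 11.16 in Vascepa livers. Its difference was 0.019 ± 0.20 (SE), and it was −0.057 with arrays centred on their medians and −0.095 without vehicle replicate 1. It was the member whose vehicle arrays spanned more, 0.47, than its Vascepa arrays, 0.28. The other 8 spanned more in the Vascepa group, which was also so for 71.4% of all genes tested.

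Lrat, which esterifies retinol for storage and marks hepatic stellate cells, read 7.38, 7.17 and 7.47 in vehicle livers and 7.50, 7.26 and 6.70 in Vascepa livers. The groups overlapped, with Vascepa replicate 1 the highest and replicate 3 the lowest of all arrays. The difference of −0.19 ± 0.24 (SE) became 0.036 without Vascepa replicate 3, −0.36 without Vascepa replicate 1 and −0.12 without vehicle replicate 3. In a piece of liver, fewer cells of a type and less RNA per cell cannot be told apart. Other stellate cell markers had a summed log2 level from 10.62 to 10.73 in vehicle livers and from 10.34 to 10.82 in Vascepa livers, over 16 of 17 listed genes, of which 10 were lower and 6 higher. Of these Dcn and Rgs5, the brightest, differed by −0.13 ± 0.18 and 0.0029 ± 0.20 (SE), and Des was under the filter. Their lowest summed level was on Vascepa replicate 3, as for Lrat, and their part in the result was not tested.

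**Figure D2:**
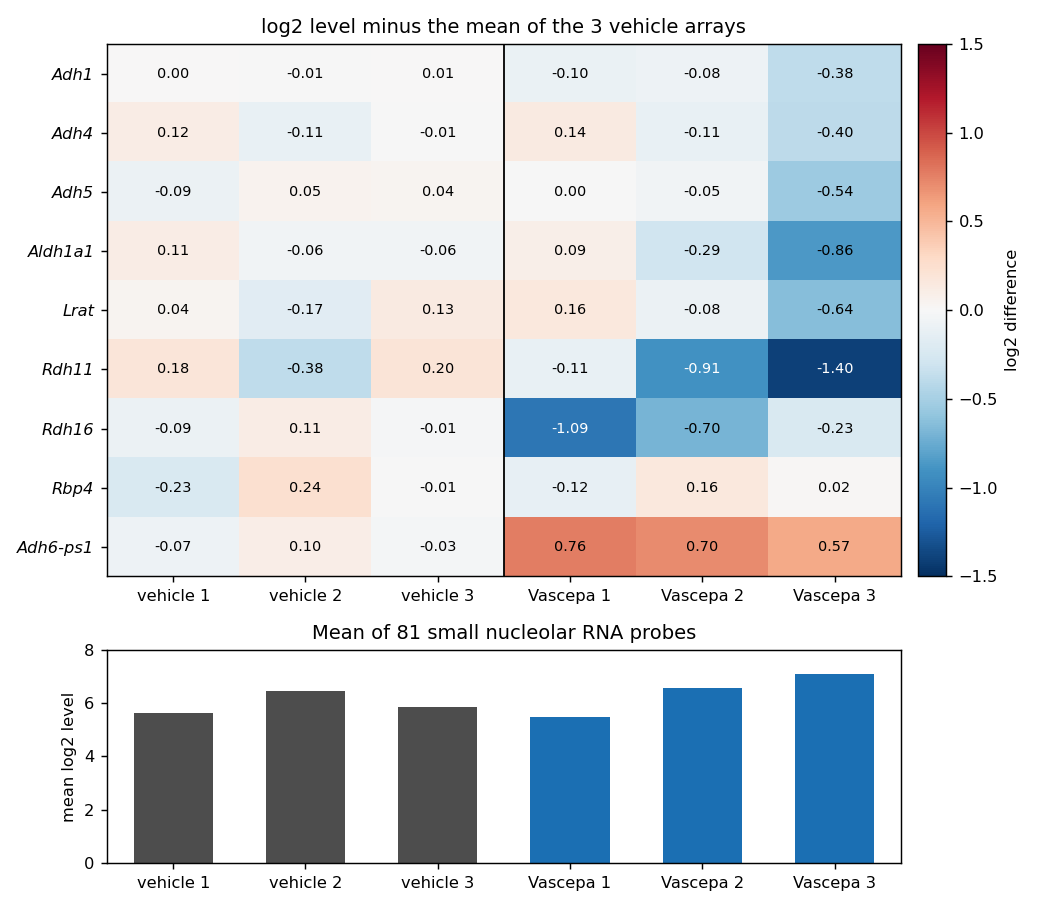
Upper panel, each gene (rows) on each array (columns) as the log2 level minus the mean of the 3 vehicle arrays; lower panel, the mean log2 level of 81 small nucleolar RNA probes on the same arrays. Vascepa replicate 3 holds the low values of the upper 6 rows, from −0.38 in Adh1 to −1.40 in Rdh11, and the highest small nucleolar RNA level, while Rdh16 is lowest on Vascepa replicate 1 at −1.09.

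Several array-wide measures, whose part in the result was not tested, moved with the genes that were low on Vascepa replicate 3. The hepatocyte markers (13 of 14 listed genes) had a summed log2 level of 15.49 to 15.64 in vehicle livers and 15.25 to 15.69 in Vascepa livers, with the lowest value on that array. Their median there was −0.455 relative to the vehicle mean, and by the means 10 of 13 were lower and 3 higher. Pericentral markers, those of hepatocytes near the central vein, lay at a median of −0.77 on that array and periportal markers at −0.55. With the small nucleolar RNA level as a covariate the difference was −0.0036 in Adh4, −0.021 in Lrat, −0.17 in Aldh1a1, −0.12 in Adh5 and −0.14 in Adh1. In the same fit Rdh11 stood at −0.50 ± 0.16, Rdh16 at −0.85 ± 0.17 and Adh6-ps1 at 0.70 ± 0.16 (SE), with none past the threshold (limma, adjusted p = 0.723, 0.303 and 0.525).

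**Figure D3:**
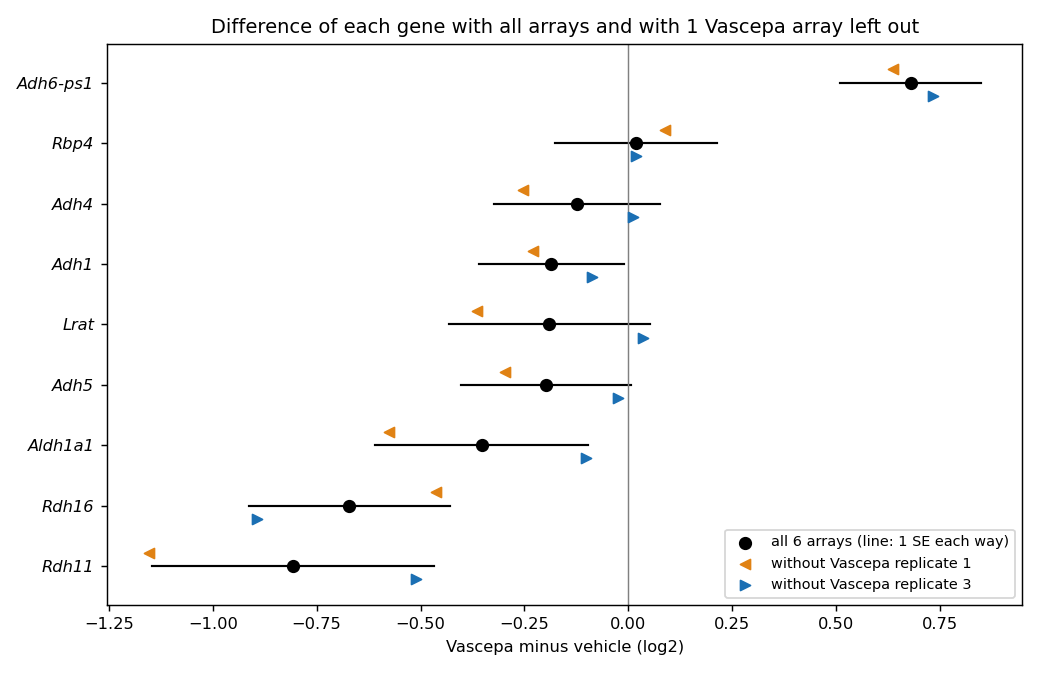
Vascepa minus vehicle on the log2 scale (x axis) for each gene (y axis) with all 6 arrays (black point, line of 1 SE to either side) and with Vascepa replicate 1 or 3 left out (triangles). Adh6-ps1 moves little, from 0.64 to 0.73, Rdh16 and Rdh11 move in opposite directions when the same array is left out, and Adh4 and Lrat cross 0 without Vascepa replicate 3.

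Likeness of pattern was measured as the root mean square difference of 2 genes over the 6 arrays, each centred on its own mean, in log2 units. Among the 36 pairs of members Adh1 and Adh5 were the closest at 0.090, followed by Adh1 and Adh4 at 0.11 and Adh4 and Lrat at 0.12. Rdh11 and Adh6-ps1 were the farthest apart at 0.84. The 3 members with the largest spread over arrays each had their own neighbours among all genes. Nearest to Rdh11 were Ly6e, a membrane protein induced by interferon, at 0.098, Ubqln4, a ubiquilin, at 0.11 and Grn, which encodes progranulin, at 0.13. Nearest to Rdh16 were Arhgap25 at 0.12, the chemokine gene Ccl2 at 0.12 and Tmem98 at 0.13. Nearest to Adh6-ps1 were Adgrf1 at 0.066, Rims4 at 0.083 and Acta1, skeletal actin, at 0.10. All 3 also had no overlap between groups. This follows from their choice as nearest to Adh6-ps1, whose groups lay 0.47 apart, and adds no separate result. Adgrf1 and Rims4 were dim, at 2.43 to 3.08 and 2.71 to 3.58 over the 6 arrays. Adgrf1 reached the filter through its Vascepa values only, with 2.43 to 2.45 in vehicle livers and 2.96 to 3.08 in Vascepa livers. The measure grows with the spread of a gene over the arrays, so these distances are not comparable between members.

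Other genes of the pathway were taken from 9 lists that hold none of the 9 genes. They name 101 genes, of which 91 had a probe of their own and 71 were above the filter. In the fit across all genes 0 of the 71 passed in either direction (limma, adjusted p under 0.05). In the means 56 were lower and 15 higher (78.9% lower, against 60.1% of all genes), with a median of −0.16. Without Vascepa replicate 3 there were 45 lower (63.4%, against 53.1% of all genes) and the median was −0.067. That array was the lowest in 37 of the 71, or 52.1%. The groups did not overlap in 6 of them, all lower (8.45%, against 8.24% of all genes), and 1, Rdh5, had an unadjusted p under 0.05. The filter bears on this count. Of the 6, Rbp7 reached it through its vehicle values only. Among listed genes under the filter, Aldh1a2, Rbp2 and Stra8 had separate groups with Vascepa higher and Adh6a with Vascepa lower.

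**Figure D4:**
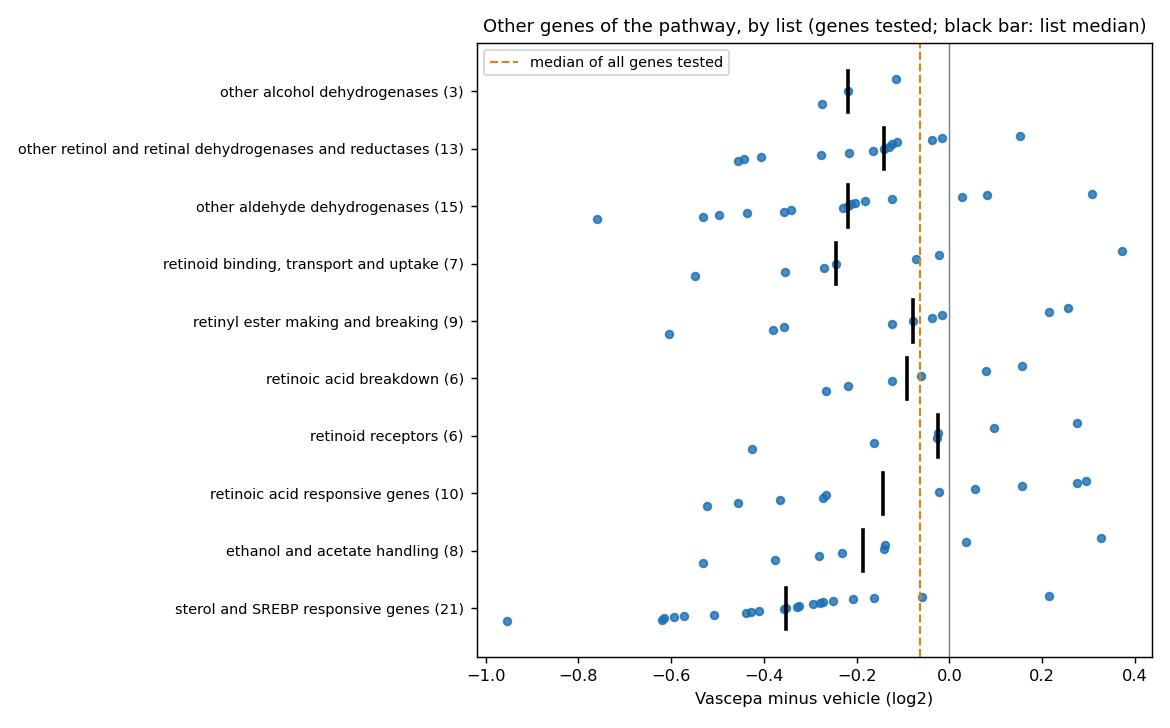
Vascepa minus vehicle on the log2 scale (x axis) for each tested gene (points) of each list (y axis, number of genes in brackets), with the list's median as a black bar and the median of all genes tested, −0.063, as a dashed line. Medians run from −0.35 in sterol responsive genes to −0.025 in retinoid receptors, and the 3 other alcohol dehydrogenases all lie below the dashed line.

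Enzymes beside the 9 genes were mostly lower in the means. Of other alcohol dehydrogenases 3 of 6 were tested and all 3 were lower, with a median of −0.22 (−0.14 without vehicle replicate 3). Adhfe1, a mitochondrial enzyme of hydroxyacids, differed by −0.22 ± 0.18 and Adh7, the stomach enzyme active on retinol, by −0.28 ± 0.24 (SE). Of other retinol and retinal dehydrogenases 13 of 20 were tested, 12 lower and 1 higher, with a median of −0.14. That median was −0.049 without vehicle replicate 2, −0.23 without vehicle replicate 1 and −0.22 without Vascepa replicate 3. Rdh5, best known from the eye, read 5.43, 5.41 and 5.67 in vehicle livers and 5.24, 5.09 and 4.85 in Vascepa livers, so that its groups did not overlap (−0.44 ± 0.19). Hsd17b13, a lipid droplet protein with retinol dehydrogenase activity, also had separate groups at 10.74, 10.84 and 10.83 against 10.62, 10.56 and 10.41 (−0.28 ± 0.17). Rdh10 and Dhrs3, which act on retinol and retinal in opposite directions, differed by −0.22 ± 0.20 and −0.46 ± 0.37, with overlapping groups.

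Other aldehyde dehydrogenases, 15 of 19 tested, were lower in 12 cases and higher in 3, with a median of −0.22. Aldh2, the mitochondrial enzyme that clears acetaldehyde, read 11.58, 11.22 and 11.48 in vehicle livers and 11.60, 10.95 and 10.14 in Vascepa livers. Vascepa replicate 3 was the lowest, as in Aldh1a1, and the difference was −0.53 ± 0.35 (SE). Aldh3a2, which oxidises fatty aldehydes, differed by −0.36 ± 0.19 with groups that did not overlap, and Aldh5a1, of the breakdown of the transmitter GABA, by −0.76 ± 0.44. The median of the list was −0.84 on Vascepa replicate 3 and 0.18 on Vascepa replicate 1 relative to the vehicle mean. Leaving out Vascepa replicate 3 took the median difference from −0.22 to −0.031, leaving out Vascepa replicate 1 to −0.44 and leaving out vehicle replicate 2 to −0.39. Genes of ethanol and acetate handling, which share Aldh2, had a median of −0.19 with 6 of 8 lower, and −0.060 without Vascepa replicate 3. Cyp2e1, the microsomal ethanol oxidase, differed by −0.14 ± 0.18 and Acss2, which activates acetate, by −0.38 ± 0.28.

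In binding, transport and uptake 6 of 7 tested genes were lower (13 listed), with a median of −0.25, which went to −0.050 when Vascepa replicate 3 was left out and to −0.37 when Vascepa replicate 1 was. Ttr, the partner of Rbp4 in plasma, differed by −0.071 ± 0.16 and Bco1, which cleaves beta-carotene, by 0.37 ± 0.29. Rbp7, a retinol-binding protein, differed by −0.35 ± 0.20 with separate groups. Its means were 2.85 in vehicle and 2.49 in Vascepa livers. It thus reached the filter through its vehicle values only, so the filter in part set this result. In the making and breaking of retinyl esters 7 of 9 were lower, with a median of −0.078, which went to −0.15 and −0.14 when vehicle or Vascepa replicate 2 was left out and to −0.033 when Vascepa replicate 1 was. Lipe, hormone-sensitive lipase, read 4.25, 4.37 and 4.52 against 4.12, 4.02 and 3.87 (−0.38 ± 0.18) and Dgat1, which can esterify retinol as well as diglyceride, differed by −0.61 ± 0.32, with Vascepa replicate 3 far below the other arrays at 3.55.

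Of the retinoid receptors 4 of 6 were lower and 2 higher, with a median of −0.025 that turned to 0.027 when arrays were quantile-normalized again, to 0.031 with Vascepa replicate 3 left out and to 0.098 with Vascepa replicate 2 left out. Rara, Rarb and Rxrg differed by −0.026 ± 0.26, 0.28 ± 0.19 and −0.16 ± 0.18 (SE). Rxra, the main RXR of hepatocytes, read 7.81, 7.08 and 7.50 against 8.11, 6.91 and 6.08, so that both the highest and the lowest array were in the Vascepa group. Among genes that respond to retinoic acid 6 of 10 were lower and 4 higher, with a median of −0.14 that was 0.054 without vehicle replicate 1 and −0.040 without Vascepa replicate 2. Cyp26a1, which breaks retinoic acid down and is strongly induced by it, read 4.08, 2.53 and 3.47 in vehicle livers and 3.39, 2.72 and 3.17 in Vascepa livers. All its Vascepa values lay within the vehicle range. Tgm2 and Tnfrsf19 differed by −0.52 ± 0.29 and −0.37 ± 0.22. In the retinoic acid breakdown list 4 of 6 were lower, with a median of −0.092 and Cyp2c39 at −0.22 ± 0.37, and the median was 0.12 without Vascepa replicate 3 and 0.082 without vehicle replicate 1.

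Sterol and SREBP responsive genes were listed because Rdh11 is known as one. Of 21 tested genes 20 were lower and 1 higher, with a median of −0.35. Leaving out vehicle replicate 2 gave a median of −0.63 and leaving out Vascepa replicate 1 gave −0.57. Nsdhl, an enzyme of cholesterol synthesis, and Insig1, which holds SREBP back, differed by −0.57 ± 0.24 and −0.62 ± 0.26 (SE), and both had an unadjusted p under 0.05. Array by array the median of the list lay at 0.25, −0.53 and 0.087 in vehicle livers and 0.11, −0.55 and −0.57 in Vascepa livers, relative to the vehicle mean. Rdh11 on the same scale lay at 0.18, −0.38 and 0.20 in vehicle livers and −0.11, −0.91 and −1.40 in Vascepa livers. Both were thus low on vehicle replicate 2 and Vascepa replicates 2 and 3, the arrays with the higher small nucleolar RNA levels. With that level as a covariate the median of the list was −0.19. The part of SREBP and of the small nucleolar RNA level in the result was not tested.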

How the data were processed

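The authors deposited log2 values, 1 a probe and array. Affymetrix Expression Console and RMA stand in the submitters' processing notes, with no version. RMA aligns the distributions of the arrays, so differences are relative to the other probes. In the deposited values the median of all probes still ran from 2.62 on vehicle replicate 1 to 2.81 on Vascepa replicate 3. Of 41345 probes, 23521 carried 1 gene symbol, 1814 several and 16010 none. For 23328 of those with 1 symbol the symbol was read from RefSeq, whether or not it changed. Sample labels gave the groups. The deposited values were fitted with limma 3.58.1 (lmFit, eBayes; R 4.3.3), Vascepa minus vehicle with no covariate, over 13493 genes with 1 probe each and a mean of at least 2.65. The threshold was a Benjamini-Hochberg adjusted p under 0.05. With 3 arrays a group, their number limits the precision. The fit was tested on simulated data. Alternatives were no filter, a filter at the 75th percentile, repeated quantile normalization, median centring, limma's trend, the replicate block, the mean of a gene's probes, the small nucleolar RNA covariate, and leaving out each array.

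The members, lists and tests were chosen with earlier results of these data known. Genes named are the members, the 2 of each list with the smallest p, 11 listed for their role, the 3 nearest in pattern to each of the 3 most variable members, the 2 brightest of each marker list used, and others said to be chosen with values known.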

Additional observations from a re-analysis of the deposited data

How the results depend on the processing

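Of 126 refitted differences of the 9 genes, 120 kept their sign and none passed the adjusted threshold. The other filters, limma's trend, the replicate block and the mean of a gene's probes left each difference as it was. Refits under those settings could not change sign, so the 120 overstates how firm the signs are. Rbp4 turned to −0.057 with arrays centred on their medians and to −0.061 with the small nucleolar RNA covariate, and ran from −0.095 to 0.14 with 1 array left out. Adh4 ran from −0.25 to 0.012 and Lrat from −0.36 to 0.036 with 1 array left out. Genes past the adjusted threshold were 0 in every alternative but that covariate, which gave 2, neither of them a member. Genes at an unadjusted p under 0.05 numbered 757 without a filter, 106 with the 75th percentile filter, 822 with the covariate, and 141 to 2018 with 1 array left out (2018 without Vascepa replicate 1, 141 and 198 without vehicle replicates 3 and 1, 221 without Vascepa replicate 2). Members without overlap between groups were 3 to 6 with 1 array left out, 6 without Vascepa replicate 1, where 31.8% of all genes did not overlap. After quantile normalization again they were 2, with Rdh16 overlapping. Members lower in the mean ran from 5 to 8. Medians of lists moved in retinol and retinal dehydrogenases (−0.22 centred, −0.25 with the covariate, −0.23 to −0.049 with 1 array left out), retinoic acid breakdown (0.11 with the covariate, −0.14 to 0.12), retinoic acid responsive genes (−0.36 with the 75th percentile filter, −0.20 to 0.054), and retinoid binding and transport (−0.099 without a filter, −0.083 with the covariate, −0.37 to −0.050). The cause was not tested. Centring on the median of all probes took the median difference of all genes from −0.063 to −0.14.

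Replicate numbers are shared between the groups, but deviations of same-numbered arrays correlated at 0.61, 0.11 and −0.13, and vehicle replicate 2 was closest to Vascepa replicate 3, so the numbers were not taken as pairs. With the replicate block 438 genes had an unadjusted p under 0.05 and 0 passed.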
